A study of Homo sapiens with 4 samples.

Results

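The 10 genes described here encode the core of the adherens junction: the cadherins CDH1 and CDH3, the catenins CTNNA1, CTNNB1 and CTNND1, the nectins NECTIN1, NECTIN2, NECTIN3 and NECTIN4, and the nectin-binding scaffold AFDN. They were chosen by name for their place in the junction, with earlier results of these data known. Each was found among the 58735 genes listed in the expression tables. Their transcripts were measured by RNA-seq in HaCaT (HaCAT in the labels), a long-established human keratinocyte line that proliferates in culture. The 2 libraries of the siControl group came from cells transfected with normal control siRNA and labelled WT in genotype, and the 2 libraries of the siALKBH5 group from cells transfected with siRNA against ALKBH5 and labelled ALKBH5 knockdown. ALKBH5 is an RNA demethylase that removes N6-methyladenosine, and the comparison asked what its loss does to the keratinocyte transcriptome. All cells were transfected with a lipofectamine reagent in six-well plates and grown as a single line without any other treatment, and transfection depletes a transcript in part and for a limited time. Because the labels do not say whether the duplicates were separate cultures, the p-values measure the spread between these libraries, which may be technical.

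Adherens junctions are the belts and spots at which neighbouring epithelial cells are joined to each other and to their actin cytoskeletons. Classical cadherins bind their like on the next cell through calcium-dependent extracellular repeats, while their tails hold beta-catenin and delta-catenin, and alpha-catenin links beta-catenin to actin filaments. Nectins are immunoglobulin-like molecules that form a parallel adhesion system, tied to actin by afadin, and they help to place the cadherins at new contacts. In the epidermis CDH1 is found in all living layers and CDH3 mainly in the basal layer, and these contacts are loosened and rebuilt when keratinocytes migrate to close a wound.

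Library totals lay between 16017502 and 18837807 counts on genes, and 15075 genes passed the expression filter of edgeR. The targeted gene had 29.6 and 27.6 FPKM (counts scaled to gene length and library total) in siControl and 15.9 and 15.4 in siALKBH5, a fall to 55.6% of the control level (edgeR quasi-likelihood test, Benjamini-Hochberg adjusted p = 6.4e-15). The basal keratinocyte keratins KRT5 and KRT14 and the basal regulator TP63 were present in every library, with at least 33.9 FPKM for TP63. Of 9 keratinocyte markers, 3 were higher in siALKBH5, KRT5 at 1.60-fold, KRT6A at 1.54-fold and KRT14 at 1.17-fold. The 4 that were lower were TP63, KRT17, ITGA6 and ITGB4, at 93.9%, 94.9%, 95.3% and 96% of control. Over all genes tested 19.3% were higher and 17.3% lower, and among the abundant genes defined below 35.6% and 26.2%. Of 12 markers of fibroblasts, melanocytes, leukocytes and endothelium only 3 passed the filter, and 1 of these changed, the endothelial cadherin CDH5. COL1A2, PDGFRA and TYR were at 0 counts in all 4 libraries and PECAM1 at 0 or 1, whereas COL1A1 had between 267 and 310 counts. Mitochondrial genes took 10.2% of the counts of each siControl library but 9.63% and 9.64% of those of the siALKBH5 libraries, and their part in the differences below was not tested.

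Reference promoters were available in RefSeq (GRCh38.p14, from 250 bases before to 50 bases after an annotated start) for 6 of the 10 genes: CTNNA1, CTNNB1, NECTIN2, NECTIN3, NECTIN4 and AFDN. The windows of the 3 genes among these that passed the test between the groups are shown, with that of AFDN as one whose gene did not. CTNNA1 (the first of its 4 windows) is at chr5:138753175-138753474, NECTIN2 at chr19:44846047-44846346, NECTIN3 at chr3:111071566-111071865 and AFDN at chr6:167827385-167827684, all on the plus strand and written 5′ to 3′. Capitals mark GC boxes (GGGCGG, or CCGCCC on the other strand) and E-boxes of the kind bound by Snail and ZEB repressors (CACCTG, or CAGGTG on the other strand), and neighbouring or overlapping matches run together.
CTNNA1: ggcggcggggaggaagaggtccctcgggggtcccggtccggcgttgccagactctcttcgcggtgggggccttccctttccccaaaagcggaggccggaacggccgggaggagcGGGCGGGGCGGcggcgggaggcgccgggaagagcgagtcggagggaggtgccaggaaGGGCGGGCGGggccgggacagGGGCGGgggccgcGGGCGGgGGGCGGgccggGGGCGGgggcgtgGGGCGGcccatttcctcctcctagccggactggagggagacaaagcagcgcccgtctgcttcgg
NECTIN2: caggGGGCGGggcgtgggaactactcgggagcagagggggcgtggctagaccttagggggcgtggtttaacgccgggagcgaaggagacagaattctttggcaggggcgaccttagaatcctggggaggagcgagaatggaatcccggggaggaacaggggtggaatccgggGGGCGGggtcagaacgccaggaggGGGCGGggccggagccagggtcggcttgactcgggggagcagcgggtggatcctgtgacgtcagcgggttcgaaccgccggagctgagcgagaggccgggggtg
NECTIN3: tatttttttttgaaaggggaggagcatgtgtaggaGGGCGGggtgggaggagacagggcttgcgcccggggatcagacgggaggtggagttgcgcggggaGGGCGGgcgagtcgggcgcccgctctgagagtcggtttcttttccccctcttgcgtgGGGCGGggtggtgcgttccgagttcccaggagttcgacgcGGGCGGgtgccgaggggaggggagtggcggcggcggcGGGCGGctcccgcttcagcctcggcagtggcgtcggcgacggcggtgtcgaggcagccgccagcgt
AFDN: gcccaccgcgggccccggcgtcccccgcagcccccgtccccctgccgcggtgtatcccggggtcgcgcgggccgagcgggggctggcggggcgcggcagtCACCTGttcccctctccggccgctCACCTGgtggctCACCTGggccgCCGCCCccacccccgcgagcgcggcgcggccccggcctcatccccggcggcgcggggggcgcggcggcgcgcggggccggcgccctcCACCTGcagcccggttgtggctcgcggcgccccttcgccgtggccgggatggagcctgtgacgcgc
The CTNNA1 window shown held 9 GC boxes and was 77.7% G or C, that of NECTIN3 held 5 and that of NECTIN2 held 3, and none of these windows held an E-box. The other 3 windows of CTNNA1, at starts further along the gene, held 4, 0 and 0 GC boxes and were 74.7%, 42.3% and 44.7% G or C, so the starts of this gene differ widely in composition. The AFDN window, 83.7% G or C, held 1 GC box and 4 E-boxes. The CTNNB1 window held 3 GC boxes, and the NECTIN4 window held 2 GC boxes and 1 E-box. Over all 35116 windows of the same length, 45% held a GC box, 20.6% an E-box, and the median content of G and C was 58.7%. These matches describe the letters of the reference and were not tested as binding sites.

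In siALKBH5 cells CDH3, CTNNA1, NECTIN1 and NECTIN2 were higher by between 0.13 and 0.24 on the log2 scale, NECTIN3 was 4.04-fold lower, and CDH1, CTNNB1, CTNND1, NECTIN4 and AFDN did not pass the test. With an adjusted p under 0.05 as the call, 4 of the 10 were thus higher, where 19.3% of all genes tested were, and 1 was lower, where 17.3% were. Among genes with a mean of at least 50 CPM (counts scaled to a common library size), 35.6% were higher and 26.2% lower. Of the 10 genes, 9 reach that level, and of these 4 were higher and 0 lower, so the share of higher calls was close to that of other abundant genes. At an unadjusted p under 0.05, CDH1 was the only 1 of these 9 that was lower by edgeR, and DESeq2 and limma called 0 lower. With a change of 1 or more on the log2 scale, in either direction, required as well, NECTIN3 alone remained called, against a background of 1.62% of all genes higher and 1.3% lower. The median log2 fold change was 0.029 over the 10 genes and -0.0081 over all genes tested, and the median size of the change was 0.10 and 0.20, respectively. Except for NECTIN3, the genes were measured with between 901 and 18425 counts in every library. In bulk RNA, fewer cells expressing a transcript and less of it per cell cannot be told apart.

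**Figure D1:**
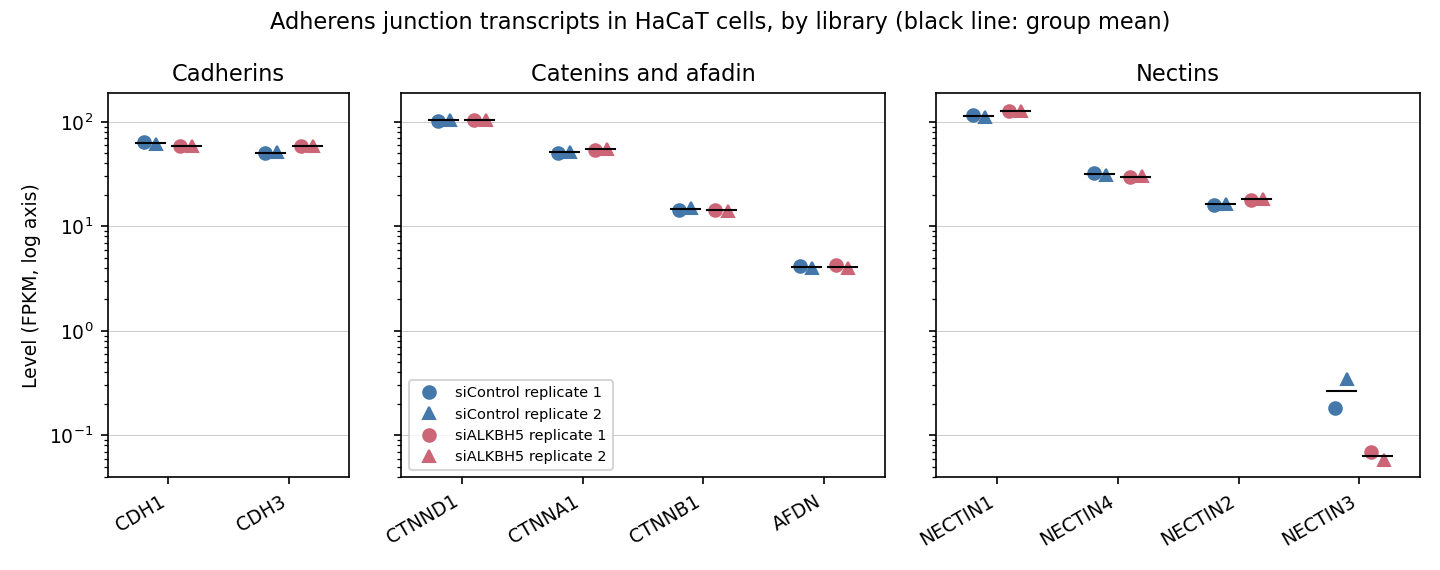
Level of each of the 10 genes (FPKM, log axis) in the 2 siControl libraries (blue) and the 2 siALKBH5 libraries (red), with the replicate shown by the symbol and the group mean by a black line. NECTIN1 and CTNND1 lie above 100 FPKM, AFDN near 4 and NECTIN3 below 1 in all 4 libraries, and the siALKBH5 points of CDH3 lie above its siControl points.

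The plot of levels by library sets the genes on a scale per kilobase of the listed gene length. That length counts the bases of all annotated exons of a gene, 11927 for CTNNB1 and 3747 for NECTIN2. The order of genes in FPKM therefore also depends on the annotation. In CPM, which leaves length out, CTNNB1 had a siControl mean of 175 and NECTIN2 of 60.6. In siControl the order was NECTIN1 (114 ± 2.76 FPKM, SD, n = 2), CTNND1 (103 ± 1.36), CDH1 (62.7 ± 1.07), CTNNA1 (50.9 ± 0.854), CDH3 (50.8 ± 0.285), NECTIN4 (31.8 ± 0.8), NECTIN2 (16.3 ± 0.35), CTNNB1 (14.8 ± 0.527), AFDN (4.07 ± 0.112) and NECTIN3 (0.263 ± 0.115). In this order only the neighbours CTNNA1 and CDH3 overlapped in their libraries. In siALKBH5 the third to the fifth place differed per kilobase. CDH3 stood at 59.1 ± 0.0223 FPKM, level with CDH1 at 59.0 ± 0.058 and overlapping it, and both lay above CTNNA1 at 54.7 ± 0.681. In CPM, CTNNA1 had means of 446 in siControl and 487 in siALKBH5 and stayed above CDH3, at 314 and 371. The 10 genes together made up between 0.129% and 0.136% of the summed FPKM of all genes in each library.

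CDH3 rose and CDH1 did not pass the test, and the levels of the 2 cadherins came closer to each other. CDH1 (E-cadherin, ENSG00000039068, chromosome 16 from 68737225 to 68835548) was at 63.4 and 61.9 FPKM in siControl and at 59.0 in both siALKBH5 libraries. The groups did not overlap, yet the difference of -0.064 ± 0.026 (SE) on the log2 scale did not pass the test (adjusted p = 0.052, edgeR). The call was sensitive to the processing. With library sizes alone the value was -0.086 with an adjusted p of 0.009 (edgeR), whereas DESeq2 gave -0.06 with an adjusted p of 0.19. CDH3 (P-cadherin, ENSG00000062038, chromosome 16 from 68636189 to 68722616 and thus next to CDH1 on the same strand) was at 50.6 and 51.0 FPKM in siControl and at 59.0 and 59.1 in siALKBH5. Both siALKBH5 libraries lay above both siControl libraries, and the gap between the groups was far wider than the spread within either. The rise was 1.18-fold, or 0.24 ± 0.027 (SE) on the log2 scale, with an adjusted p of 6.4e-09, and it stayed at 0.24 whichever library was left out.

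The ratio of CDH3 to CDH1, per kilobase, was 0.798 and 0.824 in siControl and 1.00 in both siALKBH5 libraries. CDH3 thus rose from 44.8 ± 0.559% of the summed cadherin level to 50 ± 0.0152% (SD, n = 2). The sum of both cadherins was 114 and 113 FPKM in siControl and 118 FPKM in each siALKBH5 library. Of the exon bases of CDH3, 11.1% also belong to the antisense gene AC126773.2, which was counted at 9 reads in each siControl library and 2 in each siALKBH5 library. Whether strand was used in counting is not given in the sources used here, so reads of the 2 genes in that stretch cannot be told apart.

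The exact permutation of 2 libraries against 2 cannot give a two-sided p under 0.333, so the ratios and shares of the families are given as descriptions without a test. The same limit holds wherever groups are said not to overlap, and the share of all genes whose groups do not overlap is not given here.

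**Figure D2:**
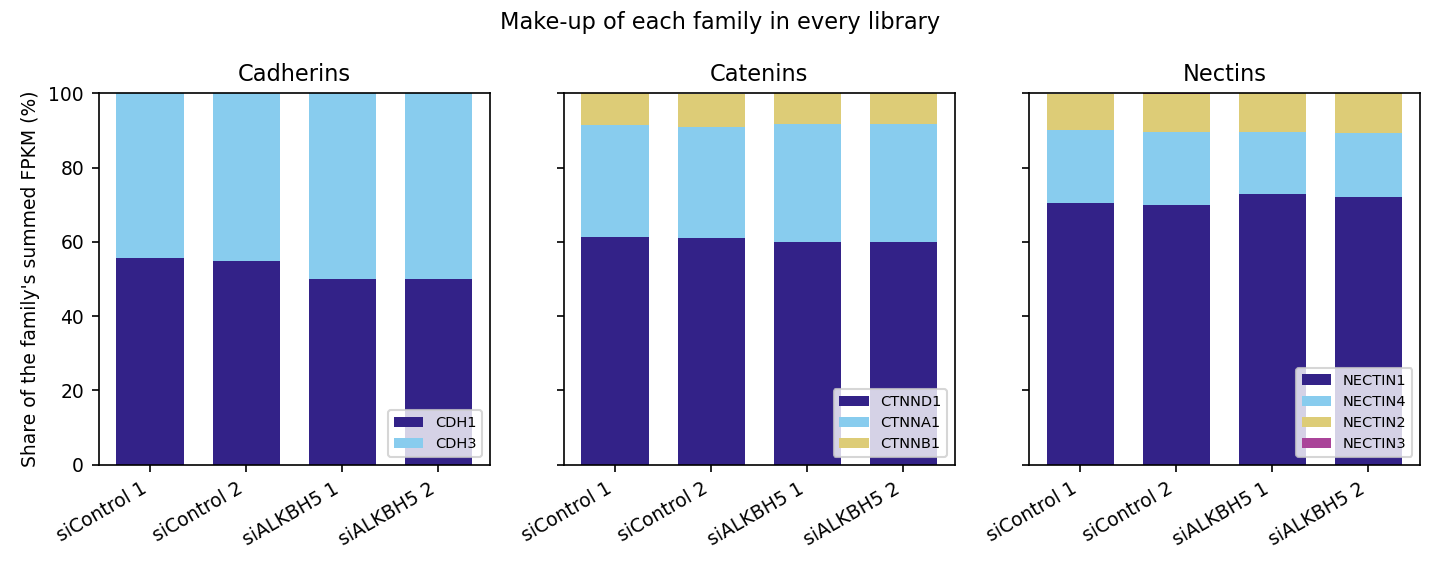
Share of each gene in the summed FPKM of its family (%, stacked bars from 0 to 100) in every library. CDH3 takes 44.4% and 45.2% of the cadherin level in siControl and 50% in both siALKBH5 libraries, while the make-up of catenins and nectins moves by less than 3 percentage points and NECTIN3 is too scarce to be seen.

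Among the catenins, 1 of 3 passed the test. CTNNA1 (alpha-catenin, ENSG00000044115, chromosome 5 from 138610967 to 138935034), which carries the pull between the cadherin complex and actin, was at 50.3 and 51.5 FPKM in siControl and at 54.3 and 55.2 in siALKBH5. The groups did not overlap, and the rise was 1.09-fold, 0.13 ± 0.025 (SE) on the log2 scale (adjusted p = 0.00011, edgeR). CTNNB1 (beta-catenin, ENSG00000168036, chromosome 3 from 41194741 to 41260096), which is also the transcriptional coactivator of the Wnt pathway, was at 14.4 and 15.1 FPKM in siControl and at 14.4 and 14.0 in siALKBH5. Replicate 1 of both groups was level at 14.4 FPKM after rounding, and the unrounded values of the groups only just failed to overlap. The fit gave a log2 difference of -0.034 and a 95% confidence interval from -0.11 to 0.038 (adjusted p = 0.49, edgeR). CTNND1 (delta-catenin, ENSG00000198561, chromosome 11 from 57753243 to 57819546), which keeps cadherins at the cell surface, was at 102 and 104 FPKM in siControl and at 103 in both siALKBH5 libraries. The siALKBH5 values fell between those of siControl, and the interval of the log2 difference ran from -0.019 to 0.063 around 0.022 (adjusted p = 0.43), a change smaller in size than in all but 6.35% of the genes tested.

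Within the summed catenin level, CTNND1 took 61.1 ± 0.187% in siControl and 60.0 ± 0.143% in siALKBH5 (SD, n = 2). CTNNA1 took 30.1% in both siControl libraries and 31.6% and 32.0% in siALKBH5. CTNNB1, the least abundant of the 3, took 8.73 ± 0.17% and 8.24 ± 0.16%. Each of these shares separated the groups, by about 1.64 percentage points for CTNNA1 and less for CTNNB1 and CTNND1. The shares add up to the whole and are not independent, and separation of 2 libraries against 2 is not a test. Relative to the cadherins they bind, CTNNB1 was at 0.126 and 0.134 of the summed CDH1 and CDH3 level in siControl and at 0.122 and 0.119 in siALKBH5. JUP is the close relative of CTNNB1 that serves desmosomes as well as adherens junctions. Per kilobase of listed length it was 29.7 ± 1.25 times as abundant as CTNNB1 in siControl and 32.5 ± 0.12 times in siALKBH5. In CPM, without length, the siControl means were 2147 for JUP and 175 for CTNNB1. A readthrough gene, TMX2-CTNND1, shares 3.65% of the CTNND1 exon bases and was listed at 0 counts, and AP001931.1, on the same strand, shares 3.28% and had between 8 and 20 counts. CTNNA1 shares 5.04% of its exon bases with LRRTM2 on the opposite strand, which had at most 3 counts.

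Among the nectins, NECTIN1 and NECTIN2 were higher, NECTIN4 did not pass the test, and the only lower call, NECTIN3, rested on few counts. NECTIN1 (ENSG00000110400, chromosome 11 from 119623408 to 119729084) was the most abundant of the 10 genes per kilobase and is also a known entry receptor of herpes simplex virus. It was at 116 and 112 FPKM in siControl and at 127 and 126 in siALKBH5. The groups did not overlap, and the rise was 1.12-fold, 0.17 ± 0.021 (SE) on the log2 scale (adjusted p = 7.6e-08, edgeR). NECTIN2 (ENSG00000130202, chromosome 19 from 44846175 to 44889228), a broadly expressed nectin that is also a ligand of lymphocyte receptors, was at 16 and 16.5 FPKM in siControl and at 17.9 and 18.4 in siALKBH5. Its groups did not overlap either, with a rise of 1.13-fold, 0.18 ± 0.053 (SE) on the log2 scale (adjusted p = 0.0078). This call was lost with DESeq2, which gave 0.18 with an adjusted p of 0.056, and with siControl replicate 1 (0.059) or siALKBH5 replicate 2 (0.062) left out.

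NECTIN4 (ENSG00000143217, chromosome 1 from 161070995 to 161089599), a nectin of skin and of several carcinomas, was at 32.4 and 31.2 FPKM in siControl and at 29.5 and 30.1 in siALKBH5. The siALKBH5 libraries lay below those of siControl, but the log2 difference of -0.073 ± 0.042 (SE) did not pass the test (adjusted p = 0.18, interval from -0.16 to 0.012). As a share of the summed nectin level, NECTIN4 went from 19.5 ± 0.12% to 17.1 ± 0.262% and NECTIN1 from 70.3 ± 0.36% to 72.5 ± 0.488% (SD, n = 2). NECTIN2 held 10.0% and 10.4%, with overlapping libraries, and the sum of the 4 nectins was 165 and 161 FPKM in siControl and 174 in each siALKBH5 library.

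NECTIN3 (ENSG00000177707, chromosome 3 from 111070071 to 111275563), which prefers NECTIN1 and NECTIN2 as partners across the cell contact, was near the limit of detection. In siControl 18 and 38 reads were counted and in siALKBH5 8 and 6, or 0.182 and 0.344 FPKM against 0.0687 and 0.0584. All siControl counts exceeded all siALKBH5 counts, although the siControl libraries themselves also lay far apart. The fitted log2 fold change was -2.01 ± 0.48 (SE), with an interval from -2.98 to -1.05 and an adjusted p of 0.001 (edgeR), which leaves 24.7% of the control level and was larger in size than in 99.6% of the genes tested. Without siControl replicate 2 the value was -1.47 with an adjusted p of 0.13, and DESeq2 gave no adjusted p for this gene. NECTIN3 made up 0.11% and 0.214% of the nectin level in siControl and at most 0.0394% in siALKBH5, so its change is hardly seen in the sum. No exon base of NECTIN3 is shared with another gene, and its antisense neighbour NECTIN3-AS1 had at most 1 count.

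AFDN (afadin, ENSG00000130396, chromosome 6 from 167826922 to 167972023) binds the tails of all nectins and links them to actin and to alpha-catenin. It was at 4.15 and 3.99 FPKM in siControl and at 4.24 and 3.95 in siALKBH5. The libraries of the groups were interleaved, with a log2 difference of 0.036 and an interval from -0.082 to 0.15 (adjusted p = 0.67, edgeR). Relative to the summed nectins, AFDN was at 2.51% and 2.48% in siControl and at 2.43% and 2.27% in siALKBH5.

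**Figure D3:**
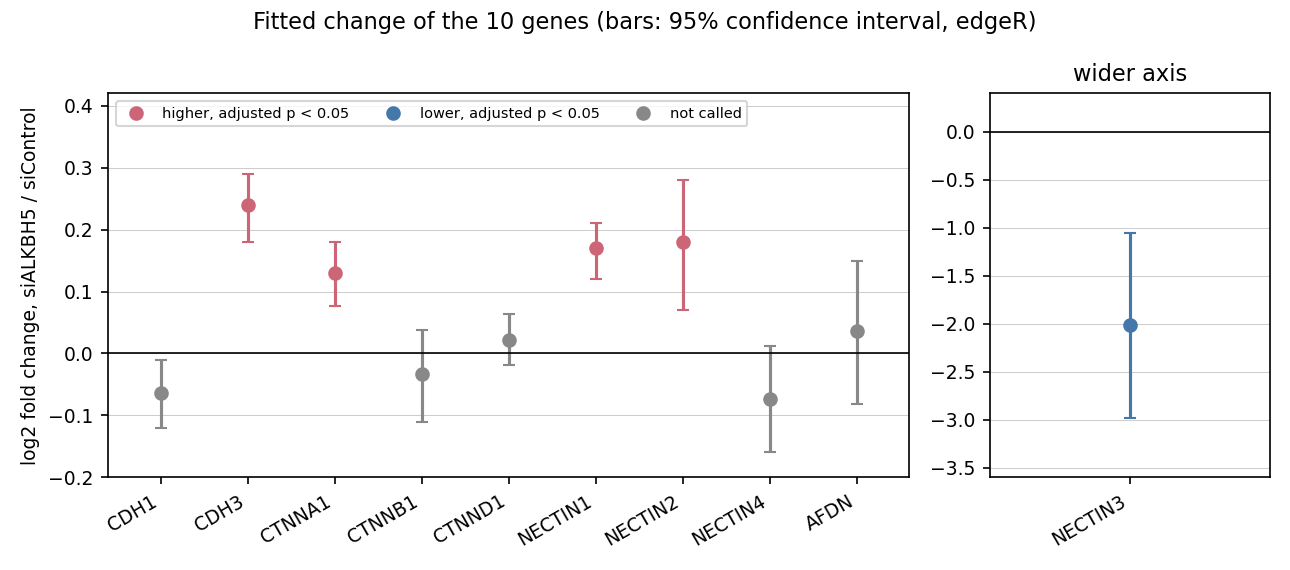
Fitted log2 fold change of siALKBH5 over siControl (points) with the unadjusted 95% confidence interval (bars) for the 10 genes, coloured by the edgeR call, with NECTIN3 on a wider axis of its own. CDH3, CTNNA1, NECTIN1 and NECTIN2 lie above 0, NECTIN3 lies at -2.01, and the interval of CDH1 excludes 0 although its adjusted p of 0.052 misses the threshold.

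The plot of fitted changes shows how narrow the intervals were for the abundant genes. The widest among genes other than NECTIN3 was that of AFDN, and changes of CTNNB1, CTNND1, NECTIN4 and AFDN larger than 0.16 in size lay outside their intervals. Relative to the CTNND1 level, which the groups shared, CTNNA1 rose, with a CTNND1 to CTNNA1 ratio of 2.03 and 2.02 in siControl and 1.90 and 1.87 in siALKBH5. The sum of the nectins over the sum of the cadherins was 1.45 and 1.42 in siControl and 1.48 and 1.47 in siALKBH5. The libraries of the groups separated in both ratios, which with so few libraries is a description and not a test.

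Genes that work with the 10 were examined in 10 lists of 114 genes, of which 91 passed the filter. Of these 91, 28 were higher and 21 lower in siALKBH5, with a median log2 fold change of 0.018, beside 19.3% higher and 17.3% lower over all genes tested and 35.6% and 26.2% over the abundant ones. The shares in the related lists thus lay between those backgrounds, and the counts of the single lists below are given as descriptions. Of 18 other cadherins 8 were tested, and CDH2 was higher and CDH19 and CDH5 lower. CDH2 (N-cadherin), the cadherin of neural and mesenchymal cells, went from 70 and 52 to 192 and 159 counts, a 2.78-fold rise (adjusted p = 2.6e-08, edgeR), yet per kilobase it stood at only 1.17 ± 0.313% of the CDH1 level in siControl and 3.38 ± 0.155% in siALKBH5 (SD, n = 2). CDH19 fell by 1.01 on the log2 scale from 35 and 26 counts to 13 and 18, and CDH5 fell by 0.69. The CDH19 value rests on few counts, and its call was lost without siControl replicate 1 or siALKBH5 replicate 1 and with DESeq2 (adjusted p = 0.17).

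Among 7 other catenins and armadillo relatives 4 were tested and 2 were higher, the alpha-catenin relative CTNNAL1 at 1.78-fold and JUP at 1.07-fold. Of 5 nectin-like molecules 3 were tested, and edgeR, DESeq2 and limma called 0 in either direction, with 1 higher and 0 lower at an unadjusted p under 0.05 by edgeR. Of the 11 actin linkers at the junction, 4 were higher and 3 lower. ACTN1 and ACTN4, which cross-link actin filaments, rose 1.26-fold and 1.19-fold, and LIMA1 (EPLIN), which joins the cadherin complex to actin, fell to 83.5% of its control level. Of 10 direct partners of the cadherin and nectin complexes 4 were higher and 2 lower, led by PDZD11 at 1.4-fold, the microtubule anchor CAMSAP3 at 1.26-fold and the apical constriction protein SHROOM3 at 1.23-fold. The 2 that were lower were MPP7 at 86.5% and PARD3 at 90.8% of control, and the call of PARD3 was lost with DESeq2 (adjusted p = 0.12). The 10 core genes thus lay beside partners that moved in both directions, with the lower side resting on these 2.

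Of 15 junction GTPases and their regulators, 9 were higher and 4 lower. RACGAP1 and ECT2, which control RHOA at cell contacts and in cytokinesis, rose 1.60-fold and 1.4-fold, and RAPGEF6 was lower at 71.7% of control (adjusted p = 0.044), though 55.4% of its exon bases belong to other genes too. Of 14 genes of junction turnover and dephosphorylation 3 were higher and 4 lower, among them the membrane protease ADAM15 at 1.56-fold and the tyrosine kinases FER and YES1 at 84.2% and 85.9% of control. Of 14 genes of the beta-catenin destruction complex and its nuclear partners, 11 were tested, and edgeR called 2 higher and 0 lower, with 2 lower at an unadjusted p under 0.05 and 0 lower by DESeq2 or limma. These were BCL9L at 1.15-fold and CSNK1A1 at 1.08-fold, with 38.8% and 37.4% of their exon bases shared with other genes. CTNNB1 itself did not pass the test, as described above.

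Of 10 transcriptional repressors of CDH1, 5 were tested, and 1 was higher and 1 lower. SNAI3 rose from 75 and 99 to 152 and 140 counts, and TCF4 fell from 96 and 134 to 68 and 83. SNAI1, TWIST1, ZEB1 and ZEB2 had at most 4 counts in any library, and SNAI2, with between 479 and 568 counts, was not called. Of 10 epithelial transcription and splicing factors 2 were higher and 5 lower, led by OVOL2 at 79.3% of control, OVOL1 at 1.21-fold and GRHL3 at 86.0%. Of the exon bases of OVOL1, 27.1% are shared with another gene. The level of CDH1 differed by the -0.064 given above across the same libraries.

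Several counts of the lists rested on single libraries or on the test used. In a fit with a library left out, 1 group has only 1 library and no spread of its own. A call kept there is therefore weak evidence that the call is stable. Without siControl replicate 2 the junction GTPases higher fell to 5, and without siControl replicate 1 those lower fell to 1, and limma called 3 higher and 1 lower and DESeq2 2 lower. RACGAP1 and ECT2 kept their calls in all 4 fits with a library left out, and RAPGEF6 kept its call in 1 of 4. The epithelial factors lower fell to 2 without siControl replicate 2 or siALKBH5 replicate 2, with OVOL2 kept in 4 of 4 fits and GRHL3 in 1. TCF4 and FER kept their calls in 2 of 4 fits, YES1 in 3 and CSNK1A1 in 1. With DESeq2 the calls of TCF4 (adjusted p = 0.068), FER (0.076), CSNK1A1 (0.063), GRHL3 (0.14) and RAPGEF6 (0.21) were lost. The keratinocyte markers lower fell to 1 without siALKBH5 replicate 1, and the direct partners lower to 1 without siControl replicate 2 or siALKBH5 replicate 2. CDH2, CDH5, CTNNAL1, JUP, ACTN1, ACTN4, LIMA1, PDZD11, CAMSAP3, SHROOM3, ADAM15, BCL9L, SNAI3 and OVOL1 kept theirs in all 4.

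**Figure D4:**
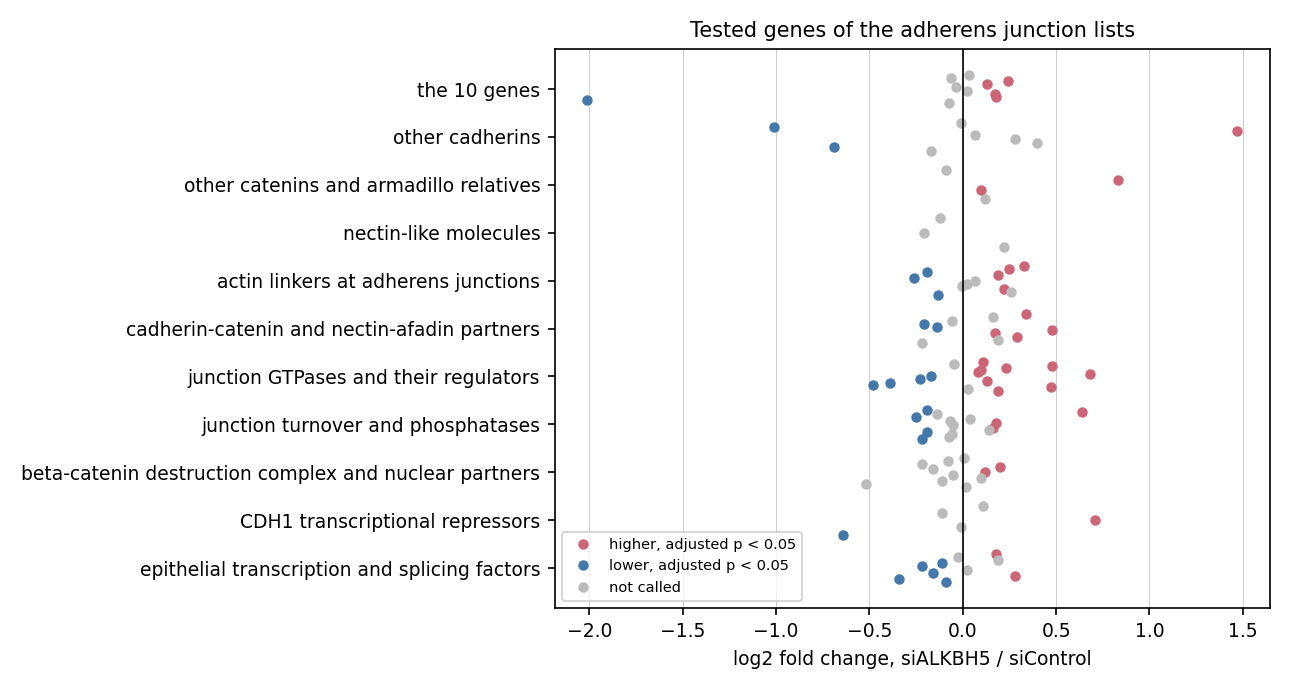
Log2 fold change of siALKBH5 over siControl for each tested gene of the 10 core genes and of the 10 related lists, with each point a gene, coloured by the edgeR call. Apart from NECTIN3 at -2.01, CDH2 at 1.47 and CDH19 at -1.01, all points lie within 1 of 0 on the log2 scale, and genes of nearly every list lie on both sides of 0.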

How the data were processed

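Poly-A RNA of HaCaT cells was sequenced, with 2 siControl and 2 siALKBH5 libraries grouped by the sample labels. The submitters' processing notes name CASAVA, HISAT2 2.0.5, featureCounts 1.5.0-p3, DESeq2 1.20.0 and the hg38 build. The authors deposited raw, unscaled read counts. The deposited FPKM were scaled by the authors within each table and were not used across tables, so FPKM were recomputed from the counts, the deposited gene length and the library total. The deposited comparison columns (log2 fold changes and p-values of 1 library against 1) were not used, and 0 columns were left unmapped. Coordinates are those of the files, of which 58724 of 58735 match GENCODE 29 on GRCh38.

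The quasi-likelihood test of edgeR 4.0.16 (R 4.3.3; filterByExpr filter, TMM factors, no covariates) was run on the counts of all 4 libraries with Benjamini-Hochberg adjustment over 15075 genes. Calls were made under an adjusted p of 0.05. Fold changes rest on TMM-scaled counts, and levels in FPKM on library totals. Intervals are unadjusted 95% confidence intervals. The common biological coefficient of variation was 0.0253. Steps were tested on simulated data.

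The members and the lists (10 lists of related genes and 2 of cell type markers) were chosen with earlier results of these data known. Named are all 10 members, ALKBH5, genes overlapping a member and, in each list, up to 3 called genes with the largest change and a mean CPM of at least 1, together with KRT5, KRT14 and TP63. Other genes (the marker genes near 0, COL1A1, PMEL, KRT17, ITGA6, ITGB4, MPP7, PARD3, SNAI1, SNAI2, TWIST1, ZEB1, ZEB2 and CDC42) were named after their values were seen. Alternatives were DESeq2 1.42.0, scaling by its size factors or by library totals alone, a filter of 10 mean counts or none, a replicate block, each library left out, and limma 3.58.1 with pseudocounts of 1 and 0.1 on log2 FPKM for genes with a mean FPKM of at least 1. Promoter windows come from RefSeq on GRCh38.p14.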

Additional observations from a re-analysis of the deposited data

How the results depend on the processing

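Of 117 log2 fold changes of the 10 genes under an alternative, 108 kept their direction and their side of the threshold. The call of CDH3 kept its side under all alternatives run, as did those of CTNNA1 and NECTIN1. For CTNNA1 the margin was narrow with limma, with adjusted p of 0.047 and 0.048 at pseudocounts of 1 and 0.1. CDH1 passed the test with library size only (-0.086, adjusted p = 0.009) and with the replicate block (-0.065, adjusted p = 0.012), so that 2 of the 10 genes were then lower. It passed under no other alternative run. Its adjusted p was 0.19 with DESeq2 (-0.06), 0.13 without a filter in edgeR (-0.058), and 0.062 and 0.064 with limma at pseudocounts of 1 and 0.1. Same-numbered libraries were deposited together, and the labels do not say whether they were paired. Their deviations correlated at 0.0337 over the genes tested. That value mixes abundant and scarce genes, whose counts are noisy, so it cannot decide whether the libraries were paired. With the block the SE of CDH1 was 0.022, against 0.026 without it. NECTIN2 lost its call with DESeq2 (0.18, adjusted p = 0.056) and, with libraries left out, ranged from 0.16 to 0.20 with an adjusted p of up to 0.062. NECTIN3 ranged from -2.38 to -1.47 with an adjusted p of up to 0.13, missing the threshold without siControl replicate 2. DESeq2 gave it no adjusted p and limma did not test it. Of the other 9 genes, 0 were lower, with or without the fold threshold, by DESeq2 or by limma at either pseudocount. With libraries left out, between 0 and 1 of the 10 genes were lower, also with that threshold.

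Directions turned only near 0. CTNNB1 ranged from -0.066 to 0.0026 and AFDN from -0.016 to 0.086 with libraries left out, and CTNND1 was at -5e-05 with library size only, which moved the median of all genes by -0.022. Levels in FPKM moved by at most 0.772% with TMM library sizes.

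Over all genes, DESeq2 called 1431 lower, and with the fold threshold 59 lower and 134 higher. With pseudocounts of 1 and 0.1, limma called 1848 and 1838 higher, and with the fold threshold 32 and 69 lower and 35 and 94 higher. In the related lists DESeq2 called 11 lower, and limma at either pseudocount 12 lower and 18 higher. The cause was not tested. With 2 libraries a group, 1 library can decide a call on few counts.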

Other observations

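CDC42, a GTPase that shapes actin at new junctions, was listed at 20 and 10 counts in siControl and 15 in each siALKBH5 library, and 59.4% of its exon bases are shared with AL031281.2 and AL031281.3 in the annotation. Whether reads in the shared exons were left uncounted was not tested. Among the 10 core genes the shared portion was at most 11.1%, in CDH3.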
